A study of Mus musculus with 3 samples.

Results

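The cells described here are mesenchymal cells of the embryonic day 15 (E15) mouse cochlea that carry transcripts of both Car3, a cytosolic carbonic anhydrase, and Otor (otoraplin), a small secreted protein of the MIA family first known from the inner ear. They were chosen by a gate on unique molecular identifier (UMI) counts, each UMI standing for 1 captured transcript. A cell counted as E15 mesenchyme when it had at least 500 detected genes, at most 20% mitochondrial UMIs, no UMI of Epcam, Cdh5, Sox10 or Ptprc (markers of epithelium, endothelium, glia and blood cells) and at least 3 UMIs of the collagen genes Col1a2 and Col3a1 together. Among these, cells with at least 3 UMIs of Car3 and at least 5 of Otor were kept, and they are called Car3/Otor cells below. There were 66 of them among 1630 mesenchymal cells of E15 replicate 1 and 112 among 2067 of E15 replicate 2, or 178 of 3697 in all. The series held 13637 cells that passed the filters on genes and mitochondrial UMIs, 6375 of them from E15.

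The study profiled whole cochleae of wild-type C57BL/6J mice with droplet single-cell RNA sequencing, in 2 libraries at E15 and 1 library at postnatal day 7 (P7), with no treatment. All cells came from tissue dissociated with papain and thermolysin and passed a cell sorter to remove debris. The labels give neither the sex nor the number of animals per library and do not say whether the E15 libraries came from separate litters. Comparisons within E15 were paired by library, so their p-values rest on how the difference varied between these 2 libraries, pooled over genes. None of the p-values below can be read as covering the spread between animals or litters.

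The mesenchyme around the cochlear duct forms the otic capsule, the spiral ligament and the spiral limbus. The fibrocytes of the ligament and limbus take up potassium ions and pass them through gap junctions and ion pumps towards the stria vascularis. Carbonic anhydrases, which interconvert carbon dioxide and bicarbonate, and otospiralin (Otos) and cochlin (Coch) are known products of mature fibrocytes. Pou3f4, a POU-domain transcription factor, and Tbx18, a T-box factor, are expressed in otic mesenchyme, and loss of either disturbs the fibrocytes.

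In the GRCm38 annotation Car3 lies at chr3:14863512-14872523 on the plus strand, beside the related carbonic anhydrase gene Car2 at chr3:14886273-14900770. Otor lies at chr2:143078473-143081713, also on the plus strand. The Otor promoter is shown as that of a gene that defines the cells. It runs from 250 bases before to 50 bases after the RefSeq start of the gene (GRCm38.p6, chr2:143078143-143078442, plus strand). The capitals mark the one TATAAA found on the gene's strand, 35 bases before that start.
Otor promoter: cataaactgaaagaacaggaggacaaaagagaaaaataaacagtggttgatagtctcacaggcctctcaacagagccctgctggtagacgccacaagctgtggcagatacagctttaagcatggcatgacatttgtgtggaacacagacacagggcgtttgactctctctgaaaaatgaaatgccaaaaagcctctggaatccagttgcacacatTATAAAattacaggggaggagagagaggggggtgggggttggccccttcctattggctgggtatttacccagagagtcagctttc
TATAAA on the gene's strand was present in 8.32% of 32851 mouse promoters of this length. The octamer ATGCAAAT, searched on both strands, was not in this window and was present in 1.74% of all promoters.

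The gate fixed the levels of Car3 and Otor, which are therefore a description. Levels are given in CPM, the UMIs of a gene summed over the cells of a group and library, per 1e6 UMIs of those cells. A Car3/Otor cell held a median of 7 Car3 UMIs (range 3 to 57) in replicate 1 and 5.5 (range 3 to 80) in replicate 2. The medians for Otor were 70.5 UMIs (range 6 to 438) and 47 UMIs (range 5 to 362). Summed, Car3 stood at 469 and 580 CPM in replicates 1 and 2, against 18.5 and 20 CPM in the other E15 mesenchyme. Otor stood at 4305 and 4077 CPM against 620 and 709 CPM. The Otor medians thus lay far above the limit of 5 UMIs and the Car3 medians closer to the limit of 3. At least 5 Car3 UMIs were held by 49 of the 66 cells and 74 of the 112.

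More cells sat at the Car3 edge of the gate than at its Otor edge. Just inside the Car3 limit, 9 and 20 cells had exactly 3 Car3 UMIs, with Otor at 3145 and 2180 CPM. Just outside it, 25 and 32 cells had 2 Car3 UMIs and at least 5 of Otor, with Otor at 2064 and 2714 CPM. At the Otor limit, 0 and 6 cells had exactly 5 Otor UMIs, while 6 and 8 cells with enough Car3 had exactly 4. A further group of 40 and 34 cells had at least 3 Car3 UMIs and fewer than 5 of Otor, with Car3 at 294 and 384 CPM and Pou3f4 at 536 and 534 CPM.

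**Figure D1:**
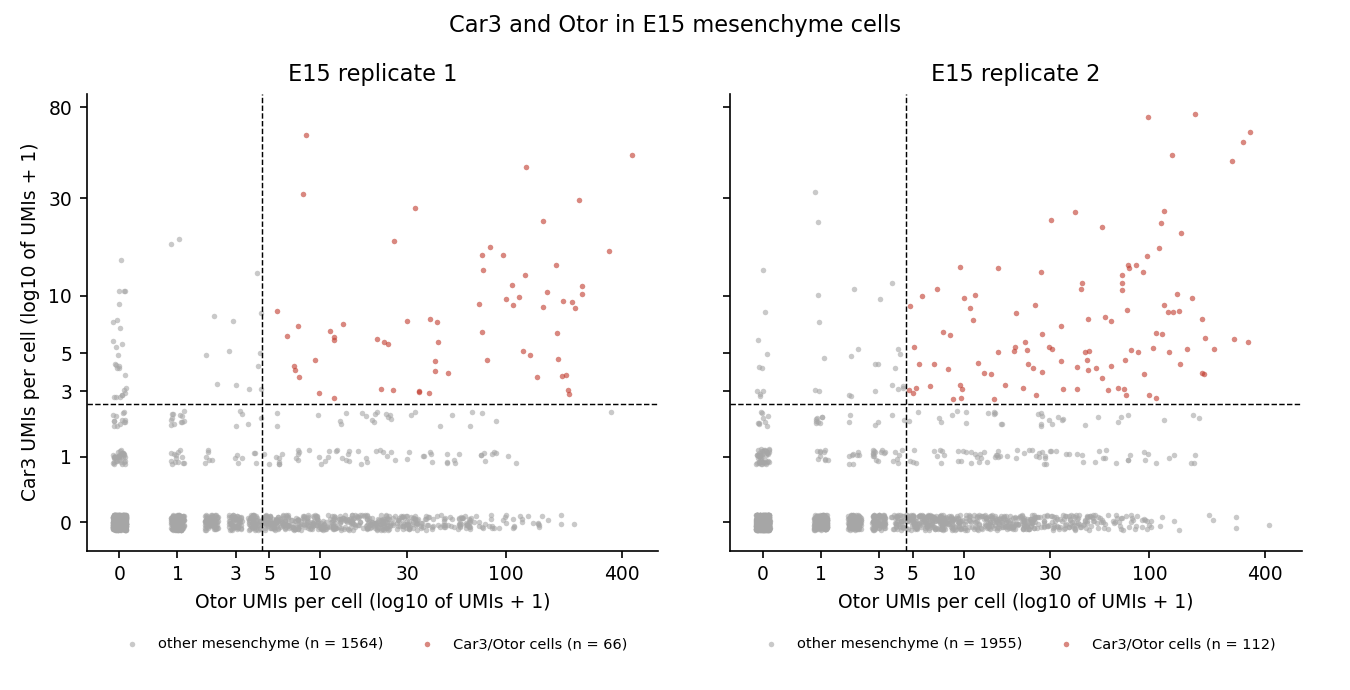
Each point is 1 mesenchymal cell, with its Otor UMIs on the horizontal axis and its Car3 UMIs on the vertical axis, both spaced by log10 of UMIs + 1 and shifted slightly at random so that points do not hide each other. The panels show E15 replicates 1 and 2 and the dashed lines the limits of 5 Otor and 3 Car3 UMIs. The 66 and 112 cells inside both limits (red) run from 6 to 438 and from 5 to 362 Otor UMIs. Most cells lie at 0 Car3 UMIs.

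RNA free in the droplets, or cells caught together, can place UMIs in cells that do not express a gene. Values in cells of other classes are given for comparison. Among cells with at least 3 UMIs of Epcam, Cdh5, Sox10 or Ptprc, 0 of 487 in replicate 1 (95% exact binomial interval up to 0.755%) and 3 of 545 in replicate 2 (0.550%) had enough Car3 and Otor to pass. Their summed Car3 was 0.813 and 7.30 CPM and their summed Otor 79.9 and 76.5 CPM, both far under the levels of the Car3/Otor cells. These UMIs lay in few cells, with Car3 in 5 and 11 of them and Otor in 65 and 52. The parts of free RNA, mixed cells and own expression in these values were not tested. The median depth of the cells of other classes was 15345 and 10843 UMIs, against 21498.5 and 15748 UMIs in Car3/Otor cells. The Car3/Otor share of the mesenchyme was 4.05% (95% exact binomial interval 3.15 to 5.12) in replicate 1 and 5.42% (4.48 to 6.48) in replicate 2, intervals that overlap and cover counting error only. A limit in UMIs selects deeper cells. When cells were first thinned to 5000 UMIs and shallower cells left out, the shares were 1.35% and 2.22% of the remaining 1556 and 1888 mesenchymal cells.

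The libraries held 46530036, 44304364 and 93829443 UMIs in 3234, 3897 and 8141 barcodes, of which 2838, 3537 and 7262 passed the filters (E15 replicate 1, E15 replicate 2 and P7). The E15 libraries shared 3 barcodes with each other, and 6 each with the P7 library. None of the Car3/Otor cells carried a shared barcode. One Car3/Otor cell of replicate 2 held 23107 of the 23204 UMIs of 8 red cell genes found in the group, so hemoglobin values there rest on 1 cell. A doublet caller marked 7, 4 and 3 cells, too few to be of use, so cells were ranked by its score instead. The highest-scoring fraction held 1 and 3 Car3/Otor cells.

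Pou3f4 and Tbx18 were not part of the gate and were present in almost every Car3/Otor cell, at levels only slightly above those of other mesenchyme. Pou3f4 had at least 1 UMI in 100% of Car3/Otor cells in both libraries, with medians of 11 and 8.5 UMIs. Its level was 548 and 543 CPM in Car3/Otor cells, 417 and 448 CPM in the other mesenchyme. The Car3/Otor values were the higher in both libraries, and the log2 difference was 0.43 ± 0.09 (SE; edgeR adjusted p = 1.2e-04), below the 2-fold change required for a call. Tbx18 was at 271 and 290 CPM against 245 and 236 CPM, a log2 difference of 0.31 ± 0.10. Both genes were thus present in Car3/Otor cells at levels less than 2-fold above those of the other mesenchyme.

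Genes of the mature fibrocyte were mostly absent or at the level of the other mesenchyme, so the name fibrocyte is not used for these cells. Otos and Gjb6, the latter a gap junction protein of fibrocytes, had 0 UMIs in all 178 cells. Ptgds, a prostaglandin synthase, had 1 UMI, and Gjb2, the main cochlear connexin, was at 2.68 and 0 CPM. A count of 0 in both libraries allows a level of up to 0.865 CPM (3 counts over the group's summed UMIs). Coch was at 74.4 and 93.6 CPM, above the 51.0 and 55.0 CPM of the other mesenchyme, with a log2 difference of 0.76 ± 0.11 that did not reach 2-fold, or 1.21, then called, when cycling cells were left out. The Coch values of the Car3/Otor cells were the higher in both libraries.

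To ask what else distinguished these cells, UMIs were summed over the Car3/Otor cells and over all other E15 mesenchyme within each library, and both sums were compared with edgeR with the library as a block. A gene was called when its Benjamini-Hochberg adjusted p was under 0.05 and its fitted change at least 2-fold. Genes of the gate were not tested. Of 13265 genes tested, 111 were called higher (0.837%) and 415 lower (3.13%) in Car3/Otor cells, 3.97% in either direction. The median log2 difference over all tested genes was -0.03. The 4 sums leave 1 residual degree of freedom, and the fit gave each gene's own spread no weight beside the spread pooled over genes, so adjusted p-values are small and the values in both libraries are printed with them. Car3/Otor cells were deeper than the other mesenchyme (median 15115 and 11169 UMIs), and the counts of calls after thinning to equal depth are given in the closing section.

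The largest increases among genes of at least 50 CPM were in a microtubule regulator and a transcription factor. Stmn2, a stathmin best known from neurons, was at 63.0 and 106 CPM in Car3/Otor cells and at 14.9 and 13.5 CPM in the other mesenchyme. Its log2 difference was 2.67 ± 0.14 (edgeR adjusted p = 2.5e-78), and the single highest cell held 17.0% and 10.5% of the Stmn2 UMIs. Zfhx3, a large zinc finger and homeodomain transcription factor, was at 437 and 493 CPM against 170 and 173 CPM, a log2 difference of 1.53 ± 0.10 (edgeR adjusted p = 1.2e-50). For both genes each Car3/Otor value lay above each value of the other mesenchyme. Tshz2, another zinc finger factor, was at 141 and 117 CPM against 61.8 and 61.0 CPM, and Etv4, an ETS factor that responds to FGF signals, at 71.8 and 70.8 CPM against 34.9 and 35.4 CPM. Their log2 differences were 1.16 ± 0.09 and 1.11 ± 0.13.

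The other named increases had varied roles. Slc1a2, a glutamate transporter, was at 50.3 and 56.1 CPM against 22.4 and 19.9 CPM, a log2 difference of 1.44 ± 0.15. Fabp7, a fatty acid-binding protein typical of radial glia, was at 81.8 and 61.7 CPM against 29.8 and 32.8 CPM, a log2 difference of 1.27 ± 0.13. Apoe, a lipid carrier, was at 285 and 294 CPM against 133 and 155 CPM, a log2 difference of 1.11 ± 0.09. Each of these genes was higher in both libraries, with no overlap between the groups. Phgdh, the first enzyme of serine synthesis (258 and 252 CPM against 132 and 139), Mrpl13, a mitochondrial ribosomal protein (228 and 222 against 115 and 121), Chaf1b, a subunit of a histone chaperone (69.7 and 57.7 against 31.8 and 35.2), Bok, a BCL2-family gene (53.0 and 54.6 against 25.9 and 30.1), and the glycolytic gene Eno1 had log2 differences of 1.00 to 1.04. These 5 lay at the 2-fold limit, and the level of Eno1 is uncertain because near-identical copies of it exist. With the looser limits of 2 Car3 and 3 Otor UMIs, Tshz2, Etv4, Apoe and all 5 were no longer called. Slc1a2 and Fabp7 lost their calls when cells were thinned to 5000 UMIs before the gate, while Stmn2 and Zfhx3 kept theirs under every alternative with a test and were past 2-fold in each replicate alone. In replicate 2 alone Fabp7 (0.98), Bok (0.93), Mrpl13 (0.95), Chaf1b (0.79) and Phgdh (0.94) were under 2-fold, and in replicate 1 alone Eno1 (0.87) was.

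The named decreases were larger and included matrix, secreted and transcription factor genes. Col1a1, the fibrillar collagen of bone and fibrous tissue, was at 4.02 and 3.03 CPM in Car3/Otor cells and 52.8 and 83.1 CPM in the other mesenchyme, a log2 difference of -4.24 ± 0.25 (edgeR adjusted p = 2.8e-59). Mgp, an inhibitor of mineralisation, was at 40.2 and 57.1 CPM against 306 and 319 CPM (-2.58 ± 0.11). Penk, the enkephalin precursor, was at 10.1 and 13.7 CPM against 141 and 145 CPM (-3.48 ± 0.15). The groups were far apart in both libraries for all 3. Foxd1, a forkhead factor of embryonic mesenchyme, was at 56.3 and 55.1 CPM against 328 and 345 CPM, a log2 difference of -2.50 ± 0.11 (edgeR adjusted p = 1.6e-115). Foxd2os, transcribed from the strand opposite Foxd2, was at 8.05 and 9.10 CPM against 57.2 and 55.8 CPM, and reads of the pair are told apart only if counting used strand. The remaining named decreases were in Ppp1r1a, an inhibitor of protein phosphatase 1 (-3.07), Angpt1, a ligand of the Tie2 receptor (-2.43), Dach1, a transcription cofactor (-2.37), Hic1, a transcriptional repressor (-2.35), Dkk2, a Wnt modulator (-2.30), Ramp2, a receptor activity-modifying protein (-2.01), and Ntng1, a netrin-G (-1.99).

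**Figure D2:**
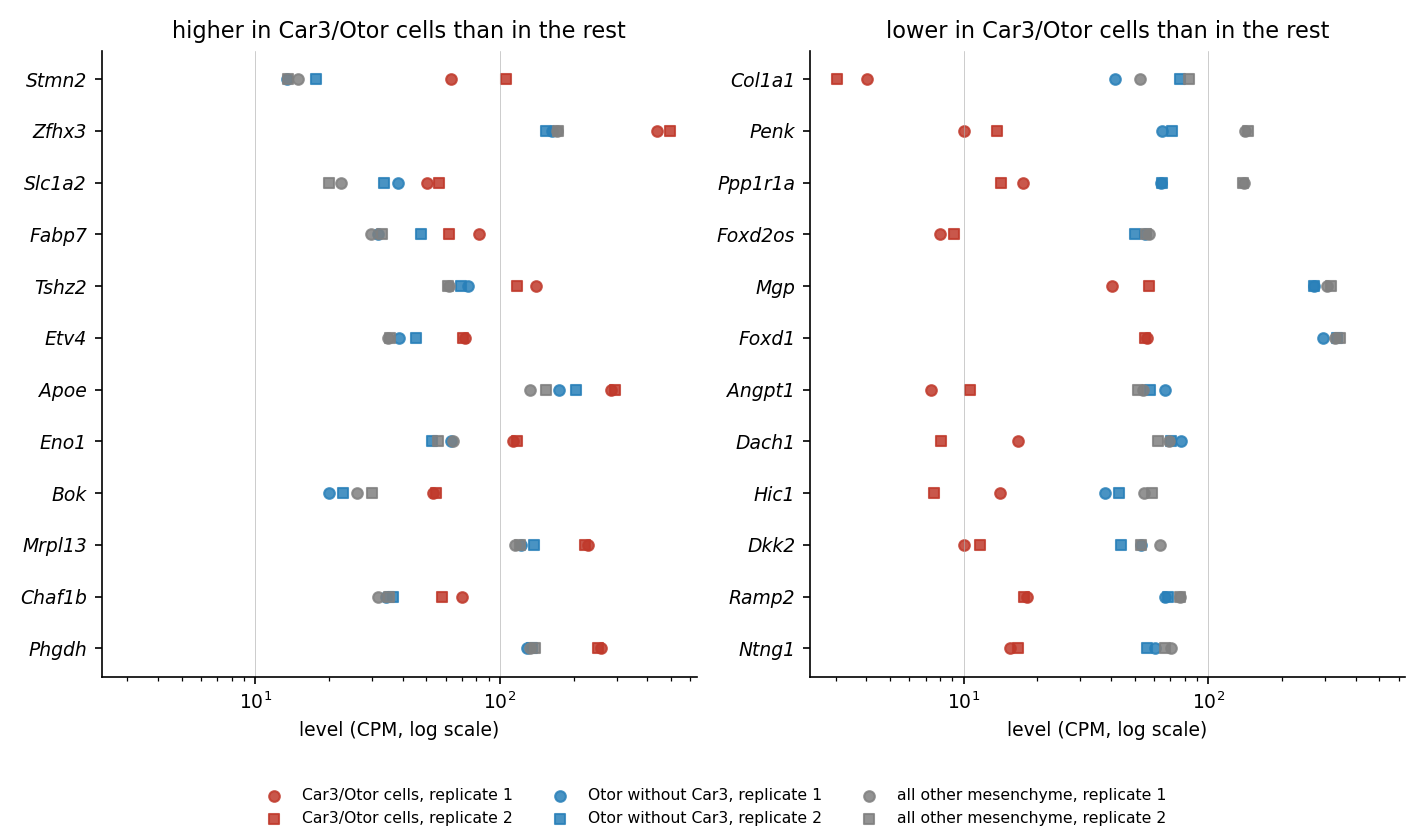
Levels in CPM (log scale) of the 12 named higher genes (left) and 12 named lower genes (right), with circles for E15 replicate 1 and squares for replicate 2. Car3/Otor cells are red, mesenchyme with Otor and without Car3 blue and all other mesenchyme, which includes the blue cells, grey. In every row both red points lie on one side of the other 4 points.

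The 30 gene lists used here were chosen with earlier results of these data known, so their counts describe and do not test. Each count is to be set beside the shares over all 13265 tested genes, 0.837% called higher and 3.13% lower. Among 17 tested genes of the fibrocyte list, 2 were called higher and 2 lower, and the median log2 difference was -0.04. The increases were in the water channel Aqp1, at 32.9 and 41.0 CPM against 9.12 and 9.87 CPM (log2 2.06 ± 0.19), and in the sodium pump subunit Atp1b1, at 14.8 and 16.2 CPM against 3.83 and 3.80 CPM (2.11 ± 0.31). The decreases were in Emilin2, a matrix glycoprotein, at 1.34 and 2.53 CPM against 10.3 and 9.91 CPM (-2.23 ± 0.46), and in Ccn3, a matricellular protein, at 8.72 and 3.54 CPM against 18.0 and 12.8 CPM (-1.29 ± 0.31). DESeq2 did not call either decrease, and Ccn3 turned to 0.38 when cycling cells were left out. The sodium, potassium and chloride cotransporter Slc12a2 (-0.05 ± 0.16) and the actin-binding Cald1 (0.41 ± 0.10) were not called. Aqp1 and Atp1b1 were again the 2 increases among 18 tested genes of gap junctions and ion transport, with Fxyd5, Ano1 and Atp1b2 lower and a median of -0.04. The gap junction gene Gja1 was at 62.4 and 60.7 CPM against 81.0 and 83.3 CPM (-0.33 ± 0.11) and was not called.

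Carbonic anhydrases and bicarbonate transporters other than Car3 did not reach a call in the edgeR fit. Of 12 tested, edgeR called 0 higher and 0 lower, with a median of -0.08. At an unadjusted p under 0.05, 3 were higher and 1 was lower, and DESeq2 called 1 higher. Car2, the neighbour of Car3 on chromosome 3, was at 413 and 342 CPM in Car3/Otor cells against 221 and 224 CPM. The Car3/Otor values were the higher in both libraries and the log2 difference was 0.85 ± 0.10 (edgeR adjusted p = 5.6e-16), under 2-fold. Car2 was called when cells were thinned after the gate (1.06) and when cycling cells were left out (1.08). Car13, another carbonic anhydrase, at 10.7 and 9.10 CPM against 6.24 and 7.60 CPM (0.59 ± 0.32), was also called in these settings (1.76 and 1.80).

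Several transcription factors of the otic mesenchyme were lower, and the edgeR fit called no increase among them. Of 32 tested, 10 were called lower by edgeR and 0 higher, with a median of -0.46. At an unadjusted p under 0.05, 6 were higher and 18 lower, and DESeq2 called 0 higher. Foxp1 was at 103 and 115 CPM against 429 and 430 CPM, a log2 difference of -1.89 ± 0.10. The forkhead genes Foxp2 (-1.47), Foxc2 (-1.48) and Foxd1, together with Osr1 (-1.27), Eya4 (-1.30) and Etv1 (-1.03), were also lower. Tbx2 had 0 UMIs in Car3/Otor cells and was at least 7.81-fold lower than in the other mesenchyme. Below 2-fold, Eya1 (0.80 ± 0.15), Six2 (0.82 ± 0.16) and Prrx1 (0.45 ± 0.08) had positive differences and Foxc1 (-0.60 ± 0.08) a negative one, and Sox9, the master factor of cartilage, stood at -0.01 ± 0.09. When cells were thinned before the gate, Eya1 was called higher (1.42) and Foxc1 lower (-1.03).

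Most called genes of the extracellular matrix were lower, as were most called genes of all those tested. Among 29 tested collagens, 1 was called higher and 8 lower, with a median of -0.04. The increase was in Col14a1, a fibril-associated collagen, at 18.1 and 18.7 CPM against 3.60 and 4.25 CPM (2.31 ± 0.30). Beside Col1a1 the decreases included Col6a1 (-1.88), Col6a2, Col6a3 (-1.66), Col13a1 (-2.47), Col18a1, Col23a1 and Col8a1, the last with 0 UMIs and at least 2.16-fold lower. Of 49 other matrix genes, 1 was higher and 13 lower, with a median of -0.53. Matn4, a matrilin, was at 57 and 49.1 CPM against 26.1 and 26.2 CPM (1.10 ± 0.15), while Tgfbi (-1.07 ± 0.09), Fbn1 (-1.17 ± 0.15), Postn (-1.23 ± 0.19) and Tnc (-1.13 ± 0.20) were lower. Tnc was at 26.8 CPM in replicate 1 and at 5.06 CPM in replicate 2, against 41.3 and 27.6 CPM, and its difference turned to 0.29 when cycling cells were left out.

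Cartilage genes were at or above the level of the other mesenchyme. Of 18 tested, 2 were called higher and 0 lower by edgeR, with a median of 0.40, and at an unadjusted p under 0.05 9 were higher and 0 lower. DESeq2 called the same counts, 2 and 0. Besides Matn4 the increase was in Cytl1, a secreted protein of chondrocytes, at 10.7 and 21.2 CPM against 1.72 and 2.97 CPM (2.85 ± 0.34). The main cartilage collagens did not differ by call, with Col2a1 at 757 and 802 CPM against 840 and 823 CPM (-0.00 ± 0.09), Col9a1 at 0.18 ± 0.09 and Col11a1 at -0.04 ± 0.08. Of 6 tested bone genes 3 were lower (Ibsp, Spp1 and Runx2), with a median of -1.83, or -1.21 when genes without UMIs are set at their bound. Ibsp, a bone sialoprotein, had 0 UMIs in Car3/Otor cells and was at least 4.23-fold lower.

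Genes that name other groups of E15 mesenchyme were mostly lower, since 7 of 12 were called lower (Gal, Penk, Calca, Pthlh, Gdf10, Osr1 and Tnc), with a median of -1.20. These genes were chosen on these libraries, so this count is no independent evidence. Calca, the calcitonin gene-related peptide precursor, was at 1.34 and 7.59 CPM against 19.5 and 25.1 CPM. Pthlh, the parathyroid hormone-related protein, was at 8.72 and 3.03 CPM against 22.4 and 28.3 CPM. Their log2 differences were both -2.13.

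In each of the 7 signalling lists, edgeR called more genes lower than higher, as it did over all tested genes (3.13% lower and 0.837% higher). In the retinoic acid pathway, 5 of 14 tested genes were lower (median -0.84), among them the synthesis enzyme Aldh1a2 (2.01 and 0 CPM against 17.7 and 11.9), the binding protein Crabp1 (31.5 and 24.8 CPM against 97.6 and 95.9) and the receptor and target Rarb (31.5 and 32.4 CPM against 81.6 and 79.0). In the hedgehog pathway 3 of 11 were lower (median -0.35), and these were the target genes Gli1, at 4.02 and 2.02 CPM against 24.3 and 21.2 CPM (-2.87 ± 0.34), Ptch1, at 14.1 and 14.2 CPM against 46.7 and 46.0 CPM (-1.62 ± 0.19), and Hhip, with 0 UMIs and at least 5.97-fold lower. The Car3/Otor values of all these genes lay under every value of the other mesenchyme.

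Of 36 Wnt pathway genes tested, 2 were higher and 8 lower, with a median of -0.15, while DESeq2 called 1 and 1. Frzb, a secreted Wnt inhibitor, was at 12.1 and 11.1 CPM against 2.53 and 2.52 CPM (2.28 ± 0.37), and the ligand Wnt2 at 4.69 and 7.08 CPM against 1.72 and 2.77 CPM (1.48 ± 0.47). The secreted agonist Rspo2 (-3.04) and the secreted inhibitors Dkk2 and Wif1 (-1.21) were lower. Of 32 genes of the BMP and TGF-beta pathway, 1 was higher and 9 lower (median -0.52; DESeq2 called 0 and 3). The ligand Bmp3 was higher, at 4.02 and 5.56 CPM against 1.72 and 1.69 CPM (1.60 ± 0.53), the ligands Gdf10 (-1.43 ± 0.14) and Tgfb2 (-1.41 ± 0.15) were lower, and the BMP antagonist Nog had 0 UMIs and was at least 3.75-fold lower. Of 20 FGF pathway genes, 2 were higher, the receptor Fgfr4 (17.4 and 11.1 CPM against 3.98 and 5.91 CPM; 1.59 ± 0.31) and the target Etv4, and 4 were lower (median -0.15; DESeq2 called 2 and 1). Of 14 IGF pathway genes, 5 were lower (median -0.51), with the binding protein Igfbp5 at 163 and 128 CPM against 551 and 504 CPM (-1.78 ± 0.10). Of 29 axon guidance and ephrin genes, 4 were lower (median -0.59), among them the semaphorin receptor Nrp2 at 63.0 and 67.8 CPM against 206 and 207 CPM (-1.56 ± 0.09) and the ephrin receptor Epha4 (-1.40 ± 0.10).

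**Figure D3:**
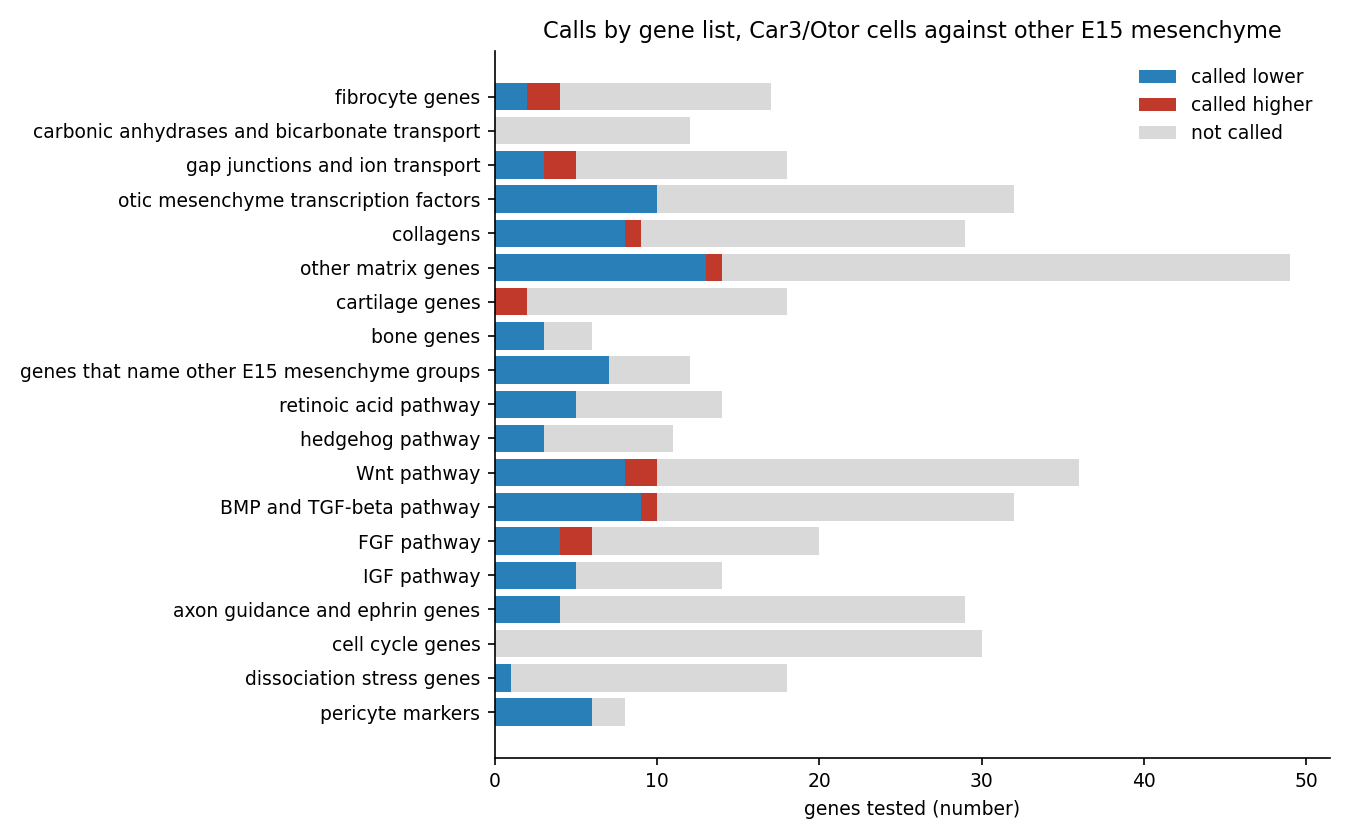
Bars give the number of tested genes in each list for Car3/Otor cells against the other E15 mesenchyme, split into genes called lower (blue), called higher (red) and not called (grey). Decreases outnumber increases in most lists, as over all tested genes. The cartilage list has 2 increases and no decrease, and the cell cycle list has no call.

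Some of these calls were lost under other settings. DESeq2 did not call Fxyd5, Ano1, Atp1b2, Fbxo2, Ngfr, Bmp3, Wnt2, Cdh1, Aldh1a2, Nog, Ibsp, Spp1, Runx2, Rspo2, Wif1, Acta2, Col8a1 or Tnc, and Tnc was also lost without the library as a block. Thinning before the gate, which left fewer cells, ended the calls of Atp1b1, Col14a1, Cytl1, Matn4, Frzb and Fgfr4 and of the decreases in Foxc2, Eya4, Fbn1, Ptch1, Hhip, Tgfb2, Nrp2, Calca and Pthlh. Leaving out cycling cells ended the calls of Frzb, Tgfbi, Postn, Rarb, Tbx2, Ibsp and Pthlh. The increase in Aqp1 and the decreases in Foxp1, Col6a1, Col6a3, Col13a1, Crabp1, Gli1, Gdf10, Igfbp5 and Epha4 kept their calls under every alternative with a test and were past 2-fold in each replicate alone.

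Summed markers of neurons and of glia were higher in Car3/Otor cells than in the other mesenchyme in both libraries. Stmn2 and Fabp7 were the only increases called in these lists. Of the 10 neuron markers, 5 had 0 UMIs in Car3/Otor cells of replicate 1 and 0 of them in replicate 2. The part of RNA from neurons or glia in these values was not tested. The 10 neuron markers summed to 80.5 and 129 CPM in Car3/Otor cells against 75.4 and 74.0 CPM in the other mesenchyme. Of the 8 tested, Stmn2 was higher and Tubb3, Stmn3, Nefm and Nefl were lower. The 9 glial markers summed to 87.2 and 66.8 CPM against 42.5 and 46.5 CPM, with Fabp7 higher, Ngfr lower and Sox10, Cdh19 and Foxd3 at 0 in both libraries (0 UMIs of Sox10 being a condition of the gate). Pericyte markers summed to 67.1 and 58.7 CPM against 191 and 191 CPM. Of 8 tested, edgeR called 6 lower (median -4.17, or -3.79 at the bound) and DESeq2 called 2. Among the 6 the contractile gene Acta2 had 0 UMIs and was at least 33.6-fold lower. The other mesenchyme included a cluster of 50 cells led by Rgs5 and Acta2, with 0 Car3/Otor cells. In mesenchyme with at least 5 Otor UMIs and no Car3 UMI, pericyte markers summed to 77.5 and 86.9 CPM. Against those cells 0 of 3 tested were called lower. Epithelial markers summed to 24.1 and 19.7 CPM against 23.4 and 23.4 CPM, with Cdh1 called higher (8.05 and 4.05 CPM against 2.30 and 2.19) and Fbxo2 lower. Endothelial markers summed to 59.0 and 74.8 CPM against 153 and 153 CPM. Melanocyte markers summed to 12.7 and 15.2 CPM against 36.0 and 27.4 CPM, and skeletal muscle markers to 3.35 and 4.55 CPM against 7.55 and 8.34 CPM. Adipocyte markers summed to 7.38 and 5.56 CPM against 4.79 and 4.09 CPM, higher in both libraries but on 11 UMIs in each. Macrophage markers summed to 0 and 1.01 CPM against 0.996 and 1.32 CPM. Red cell genes summed to 40.2 and 11735 CPM against 1705 and 632 CPM, the high value resting on the 1 cell named above. Genes that respond to tissue dissociation summed to 2809 and 2836 CPM against 3888 and 3902 CPM, and 1 of 18, Dusp1, was lower (median -0.47).

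Because the gate asks for Otor as well as Car3, the Car3/Otor cells were also compared with mesenchyme that had at least 5 Otor UMIs and no Car3 UMI. These Otor-only cells are part of the other mesenchyme of the comparison above. They numbered 475 and 500, with Otor at 1456 and 1678 CPM, lower than in Car3/Otor cells, and a median depth of 16517 and 13561 UMIs. Of 11656 genes tested with the same edgeR fit, 98 were called higher (0.841%) and 297 lower (2.55%) in Car3/Otor cells, 3.39% in either direction, with a median over all tested of -0.02. The comparison shares its Car3/Otor cells with the one above, so the values are set side by side and the counts are not compared.

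Stmn2 and Zfhx3 led again among genes of at least 50 CPM. Stmn2 was at 13.4 and 17.7 CPM in Otor-only cells (2.49 ± 0.15) and Zfhx3 at 164 and 155 CPM (1.61 ± 0.10), both below either Car3/Otor value. Bok (1.38 ± 0.16), Eno1 (1.06 ± 0.12) and Phgdh (1.01 ± 0.10) were also called. Car2 passed 2-fold here, at 180 and 172 CPM in Otor-only cells against 413 and 342 CPM (1.16 ± 0.09, edgeR adjusted p = 1.1e-31). Slc1a2 (0.64 ± 0.15), Apoe (0.67 ± 0.09), Etv4 (0.82 ± 0.14), Mrpl13 (0.85 ± 0.10), Chaf1b (0.90 ± 0.15), Fabp7 (0.91 ± 0.14) and Tshz2 (0.91 ± 0.11) were under 2-fold. With the stricter gate of 5 Car3 and 10 Otor UMIs Fabp7 (1.10), Tshz2 (1.00) and Chaf1b (1.02) were called, and without cycling cells Fabp7 (1.01) and Etv4 (1.22). Fabp7 was also called when thinned after the gate (1.01). Coch, at 48.4 and 41.0 CPM in Otor-only cells (0.98 ± 0.13), was called with the looser gate (1.19), the stricter gate (1.04), a limit of 10% mitochondrial UMIs (1.00) and without cycling cells (1.06). Slc1a2 was at 38.3 and 33.5 CPM and Apoe at 174 and 205 CPM in Otor-only cells. These lay between the levels of the Car3/Otor cells and of the other mesenchyme, which includes the Otor-only cells.

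The named decreases against Otor-only cells were in Ccn4, a matricellular protein (8.05 and 7.08 CPM against 50.6 and 50.9 CPM; -2.69 ± 0.24), Angpt1 (-2.68), Dach1 (-2.57), Foxd2os (-2.54), Foxd1 (296 and 337 CPM in Otor-only cells; -2.45 ± 0.12) and Penk (-2.44). Col1a1 (-4.07 ± 0.28) and Mgp (-2.39 ± 0.12) were lower as well. In the fibrocyte list, 3 of 15 were higher (Aqp1, Atp1b1 and Car2) and 2 lower (median 0.22; DESeq2 called 2 and 1). Of 17 cartilage genes 2 were higher, Cytl1 (3.26 ± 0.41) and Mia, a secreted protein of the same family as Otor, at 20.1 and 23.8 CPM against 6.83 and 9.32 CPM (1.5 ± 0.25). DESeq2 called 1 of the 17 cartilage genes higher and did not call Mia. All 5 tested bone genes were lower by edgeR (median -2.95, or -1.79 at the bound), with Ibsp at least 10.7-fold lower. Of these 5, DESeq2 called 1 lower. Of 30 otic transcription factors 7 were lower and 0 higher (median -0.32, with 5 higher at an unadjusted p under 0.05 and 0 by DESeq2). The 4 hemoglobin genes Hbb-bt, Hbb-bs, Hba-a1 and Hba-a2 were also called higher, which rests on the 1 cell with red cell RNA. They turned to lower without the cells of highest doublet score. Among Otor-only cells, 1 cell held 1128 of 1576 red cell UMIs in replicate 1 and 1 cell 14006 of 14312 in replicate 2. Neither direction is therefore read as a difference between the groups.

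Levels of several genes were then followed over classes of Car3 count among cells with at least 5 Otor UMIs. In replicates 1 and 2 the classes held 475 and 500 cells with no Car3 UMI, 83 and 102 with 1 or 2, 17 and 38 with 3 or 4, and 49 and 74 with 5 or more. Zfhx3 in replicate 1 was at 164, 218, 410 and 447 CPM from the lowest class to the highest, and in replicate 2 at 155, 343, 362 and 553 CPM. Stmn2 was at 13.4, 18.6, 33.7 and 73.3 CPM and at 17.7, 38.9, 83.6 and 116 CPM. Foxd1 ran the other way, at 296, 212, 90.8 and 44.3 CPM and at 337, 157, 59.5 and 53.1 CPM. These 3 genes were ordered by Car3 class in both libraries, as were 7 of the 12 named higher genes and 5 of the 12 named lower genes, which had been called on the same cells. Fabp7 was not ordered, at 31.7, 91.6, 44.1 and 95 CPM in replicate 1. Otor itself was higher in each class than in the one before, at 1456, 1769, 3353 and 4638 CPM and at 1678, 2490, 2771 and 4677 CPM. Car2 was at 180, 355, 350 and 435 CPM and at 172, 287, 310 and 356 CPM, ordered in replicate 2 and level between the middle classes in replicate 1. Mgp was at 269, 175, 112 and 15.4 CPM and at 270, 191, 77.1 and 48.0 CPM. Median depth was 16517, 18434, 17636 and 22440 UMIs in replicate 1 and 13561, 14747, 14452.5 and 16570.5 UMIs in replicate 2, and its part in these series was not tested. The cells share 2 libraries, so no test was made over the classes.

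**Figure D4:**
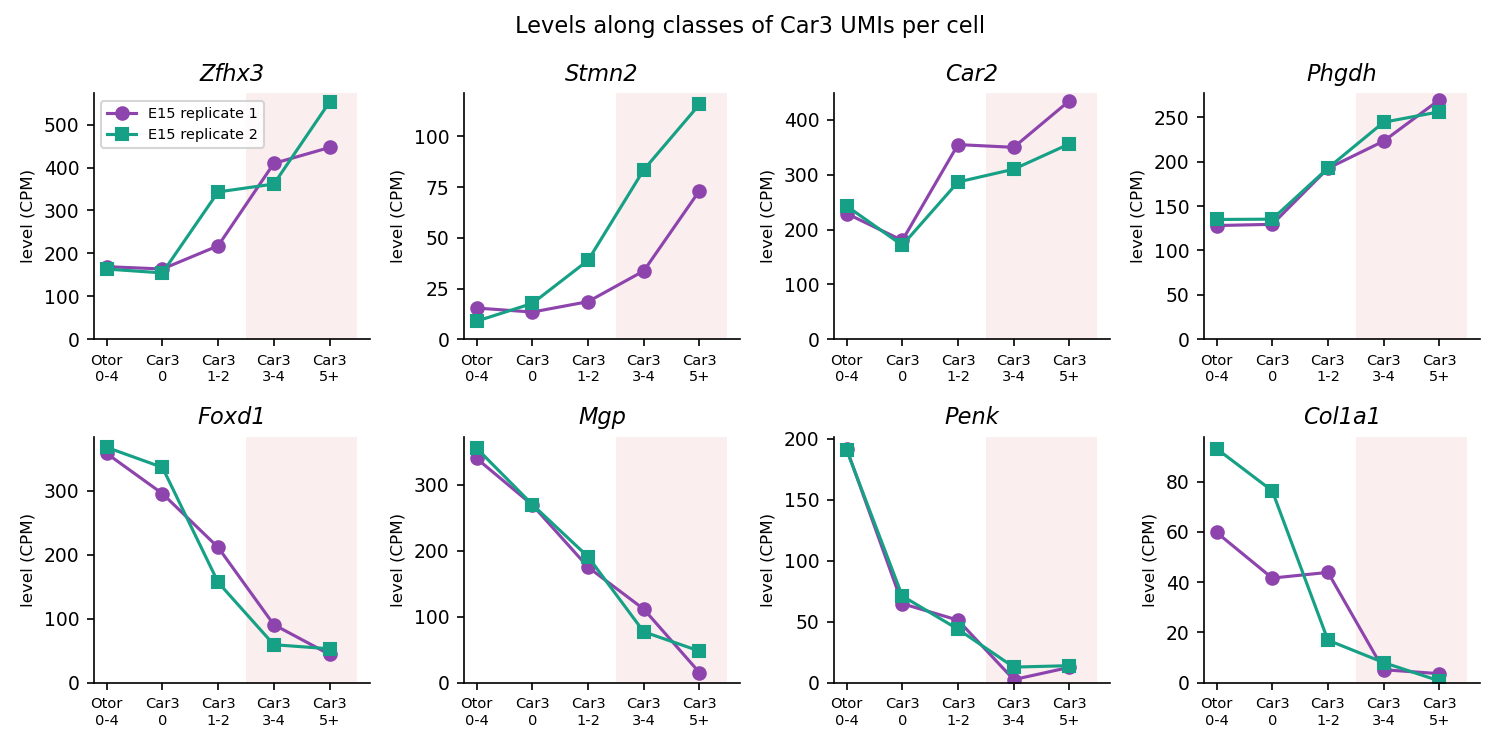
Summed level in CPM (vertical axes from 0, one panel per gene) in cells with 0 to 4 Otor UMIs and in cells with at least 5 Otor UMIs split by Car3 UMIs, with circles for E15 replicate 1 and squares for replicate 2. The shaded classes are the Car3/Otor cells, where Zfhx3 and Stmn2 reach 447 and 73.3 CPM in replicate 1 and Foxd1 and Mgp fall to 44.3 and 15.4 CPM.

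Cells in the division cycle were common among Car3/Otor cells, although the summed level of cycle genes did not follow in both libraries. Cells were first thinned to 2000 UMIs, and shallower cells were left out. At least 2 UMIs of 30 cell cycle genes were then found in 63.6% (95% exact binomial interval 50.9 to 75.1) of Car3/Otor cells of replicate 1 and 64.3% (54.7 to 73.1) of replicate 2. In the other mesenchyme the shares were 41.7% and 42.6%, and in Otor-only cells 45.3% and 48.8%. The summed level of the list was 3068 and 4567 CPM in Car3/Otor cells, 3505 and 3226 CPM in the other mesenchyme and 3848 and 3815 CPM in Otor-only cells. In replicate 1 the share was higher and the summed level lower than in the other mesenchyme, so no order is read from the share. None of the 30 cycle genes was called against the other mesenchyme by edgeR (0 higher and 0 lower, median 0.17). At an unadjusted p under 0.05, 14 were higher and 1 lower, and DESeq2 called 0 in either direction.

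When the E15 mesenchyme was clustered without the 8 genes of the gate, the Car3/Otor cells did not form a cluster of their own. The cluster with the largest share of them took 65 cells, or 37.9% of those in replicate 1 and 35.7% of those in replicate 2, and 33.2% of its cells were Car3/Otor cells. Another 28 lay in a cluster led by histone genes, 21 in one led by Coch and 18 in one led by Wnt6. With a finer resolution, 53 Car3/Otor cells fell in 1 cluster of which they made up 47.3%. Among the 15 nearest neighbours of a Car3/Otor cell, 36.1% (replicate 1) and 33.2% (replicate 2) were also Car3/Otor cells, against 3.46% and 4.48% for the other mesenchyme.

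The same gate applied to the P7 library kept 1375 of 4233 mesenchymal cells, or 32.5% (95% exact binomial interval 31.1 to 33.9). In P7 cells of other classes 86 of 1557 (5.52%) reached both limits, against 0 of 487 and 3 of 545 at E15, and the part of free RNA or of mixed cells in the P7 share was not tested. Age cannot be told apart from library, since P7 has 1 library, nor from the software version and gene annotation, which differ between the file headers of both ages. The edgeR fit gives the P7 library the spread found between the E15 libraries, which cannot be checked with 1 library. Car3 was at 9152 CPM and Otor at 19474 CPM in the P7 cells, against 469 and 580 CPM and 4305 and 4077 CPM in the E15 cells, as a description only.

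Genes of fibrocytes, cartilage and bone were higher in the P7 cells, and genes of the division cycle lower. Of 11163 genes tested, 2451 were called higher at P7 (22.0%) and 1691 lower (15.1%), or 37.1% in either direction, with a median over all tested of 0.04. Otos stood at 26871 CPM at P7 and at 0 in both E15 libraries, at least 31068-fold higher, and at 1097 CPM in P7 cells of other classes. Of 20 fibrocyte genes 18 were higher and 1, Gja1, lower (median 2.84). Coch was at 838 CPM against 74.9 and 94.1 CPM, Gjb2 at 383 CPM against 2.70 and 0 CPM, and Slc12a2 at 200 CPM against 34.4 and 32.6 CPM, all with P7 above both E15 values. Atp1b1 was at 66.0 CPM (2.29 ± 0.17), Aqp1 at 92.1 CPM (1.51 ± 0.15) and Ptgds at 446 CPM. Gjb6, at 0 in E15 cells, was at least 110-fold higher.

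Of 18 genes of gap junctions and ion transport 14 were higher and 3 lower (median 1.96), and of 12 carbonic anhydrases and bicarbonate transporters 7 were higher and 1, Slc4a7, lower (median 1.43). Of 22 cartilage genes 18 were higher and 2 lower (median 3.84), with Col2a1 at 10344 CPM against 762 and 807 CPM, Col9a1 at 8356 CPM against 205 and 265 CPM, and Mia at 520 CPM against 20.2 and 23.9 CPM. All 12 tested bone genes were higher (median 11.20, or 6.41 at the bound), with Ibsp at least 1178-fold, Bglap at least 493-fold and Bglap2 at least 381-fold higher. Bone genes summed to 2423 CPM in these P7 cells and to 12146 CPM in the other P7 mesenchyme, and the part of free RNA in their increase was not tested. The matrix genes Col8a1 and Vit were at least 342-fold and 265-fold higher, and Hhatl at least 275-fold higher. Epithelial markers summed to 1321 CPM at P7, of which Fbxo2 alone gave 1277 CPM.

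All 30 cell cycle genes were lower at P7 (median -6.25), with Mki67 at 0.827 CPM against 103 and 181 CPM and Top2a at 1.43 CPM against 230 and 406 CPM. The share of cycling cells was 1.34% at P7. Among genes of at least 50 CPM in both E15 libraries, the 6 largest decreases were in histone genes, led by Hist1h3b at 112 CPM over both E15 libraries (at least 679-fold lower) and Hist1h2af (at least 452-fold lower), and followed by Hist1h3c (-11.40), Hist1h2an (-10.17), Hist1h1b (-9.67) and Hist1h2ab (-9.59). Histone genes belong to families of near-identical copies, so their single values are uncertain. Genes that respond to dissociation were also higher at P7, 17 of 18 with Hsp90aa1 lower (median 3.42), for instance Fos at 3429 CPM against 204 and 245 CPM.

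Other genes described above at E15 were lower, higher or not called at P7. Pou3f4 was at 457 CPM at P7 against 551 and 546 CPM (-0.04 ± 0.13), Tbx18 at 315 CPM against 273 and 292 CPM (0.38 ± 0.12), Car2 at 355 CPM against 416 and 344 CPM (0.12 ± 0.16) and Zfhx3 at 228 CPM against 440 and 496 CPM (-0.82 ± 0.14), none of them called. Stmn2 was lower at 3.03 CPM against 63.4 and 106 CPM (-4.61 ± 0.36), as were Bok (-4.10), Chaf1b (-4.90) and Etv4 (-1.24). Apoe was higher at 3538 CPM against 287 and 296 CPM (3.82 ± 0.10), as were Fabp7 (1.66 ± 0.16) and Slc1a2 (1.35 ± 0.12). Col1a1 and Mgp, low in Car3/Otor cells at E15, were at 147 and 885 CPM at P7.

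**Figure D5:**
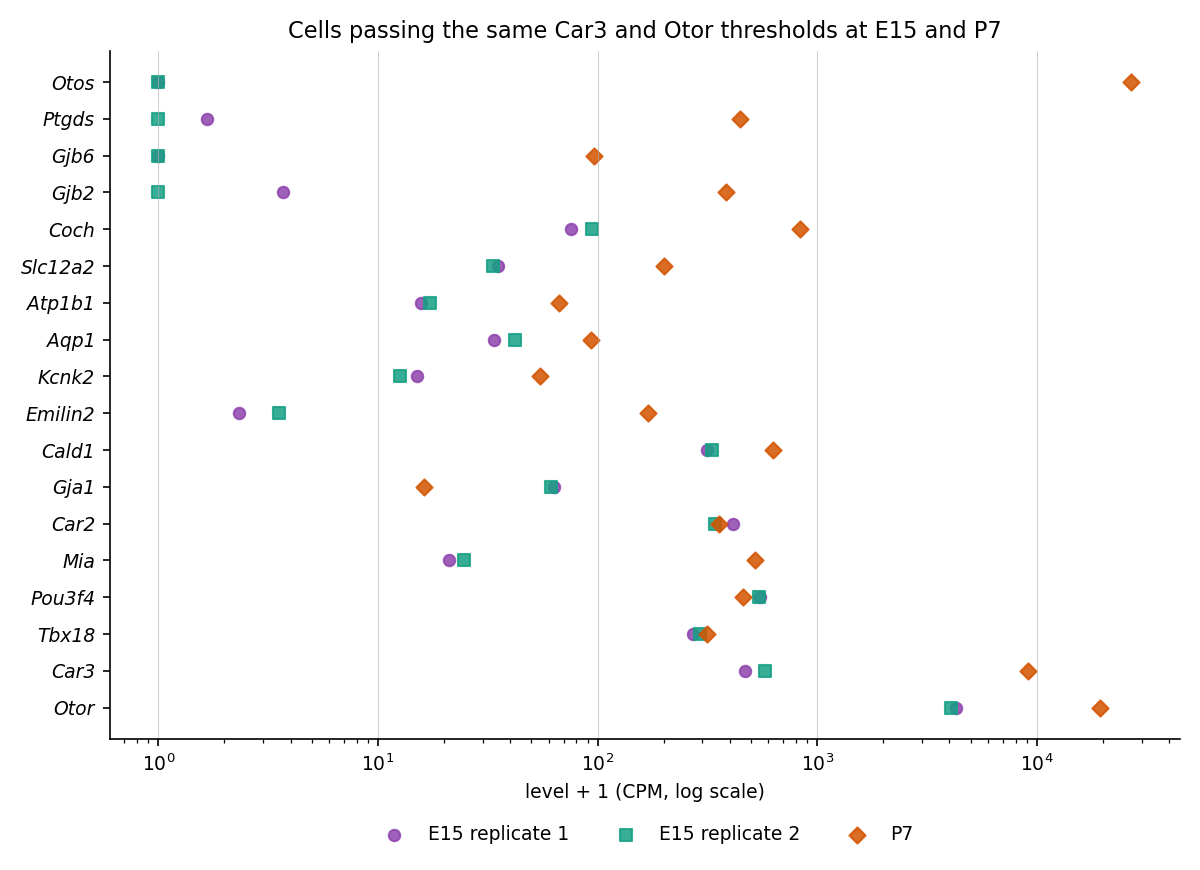
Level + 1 in CPM (log scale) of 18 genes in cells passing the same Car3 and Otor limits, for E15 replicate 1 (circles), E15 replicate 2 (squares) and the single P7 library (diamonds). Otos moves from 0 to 26871 CPM, Gja1 is the fibrocyte gene with the lower P7 value, and Pou3f4 and Tbx18 stay near their E15 levels.

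Within the P7 library, cells inside the gate were set against the other P7 mesenchyme for the genes called at E15, a comparison of 1 library without a test that was chosen after the data had been seen. Of 99 E15 increases with enough UMIs at P7, 58 (58.6%) were higher inside the P7 gate, against 31.2% of all tested genes, and 40 (40.4%) were at least 2-fold higher, against 3.62%. Of 395 E15 decreases, 332 (84.1%) were lower inside the gate, against 68.8%, and 164 (41.5%) at least 2-fold lower, against 6.77%. Among the genes named above the P7 log2 difference was 3.90 for Fabp7, 2.25 for Slc1a2, 1.30 for Car2 and 1.08 for Zfhx3, and -3.63 for Penk, -2.68 for Col1a1, -1.79 for Foxd1 and -1.14 for Mgp. Of the 12 named higher genes, 7 were higher inside the P7 gate as well, and of 11 named lower genes with a P7 value, 10 were lower. The median over all tested genes was -0.16 at P7. The 6 that differed in direction are given in the closing section.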

How the data were processed

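Cochlear cells were measured as UMI counts by droplet sequencing (10x Chromium 3' v3), in 2 libraries of E15 and 1 of P7. The authors deposited raw UMI counts per gene and barcode, made with Cell Ranger 6.1.2 on GRCm38, per the submitters' processing notes; per the file headers the version was 6.1.2 at E15 and 3.1.0 at P7. The rule by which barcodes were called cells is not given in the sources used here, and whether counting used strand is not stated either. The libraries listed 32285, 32285 and 28692 genes, and the age comparison used the 27734 listed in all 3.

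Cells under 500 genes (365, 350 and 595) or, of the rest, over 20% mitochondrial UMIs (31, 10 and 284) were left out. Deposited counts were summed over cells by library and group and tested with edgeR 4.0.16 (TMM, filterByExpr, quasi-likelihood test), with library as a block where both groups came from the same libraries, which is also what pairs the sums. Adjusted p-values are Benjamini-Hochberg values over all genes tested. The fit for age had no block and took its spread from the E15 libraries. In data simulated from these sums with the fitted spread, 200 genes changed by 4-fold were all called in each comparison. The changed genes were drawn from those with more counts, so genes of few UMIs were not covered. Of genes changed by 2-fold, 91.5%, 95.5% and 87.5% had an adjusted p under 0.05 (other mesenchyme, Otor-only cells and age). Calls were made for 49.5%, 57.5% and 50%, since a true 2-fold change lies at the limit for a call.

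Named genes were Car3, Otor, Pou3f4 and Tbx18, then up to 12 higher and 12 lower genes (6 and 6 in the other comparisons) with the largest change among called genes at 50 CPM or more in both sums of the higher group, leaving out mitochondrial, ribosomal, sex-linked and unnamed genes, and members of the lists. The gate, the members and the lists were chosen with earlier results of these data known. Clusters came from scanpy 1.11.5 (2000 variable genes without those of the gate, 30 components, 15 neighbours, resolution 1). Doublets were scored with Scrublet. Alternatives were DESeq2 1.42.0, other size factors, filters, fold limits, gates and depths, no block, and leaving out cycling cells, high doublet scores or each replicate. Leaving out cells with at least 10 UMIs of red cell genes was added after the data had been seen. Promoter sequence is from RefSeq, and intervals and floors cover counting error only.

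A few genes of the lists are not reported here by name, and the lists' counts include them.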

Additional observations from a re-analysis of the deposited data

Results flagged for a closer look

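For 6 of the genes named above, the direction in Car3/Otor cells against the other mesenchyme at E15 was the opposite of that between cells inside and outside the same gate at P7, and the difference between ages was not tested. P7 has 1 library, and over all tested genes the median log2 difference was -0.16 at P7 and -0.03 at E15, with 68.8% of genes lower inside the P7 gate. Apoe lay above that P7 median. Stmn2 had a log2 difference of 2.67 at E15 and -2.37 at P7, where it was at 3.03 CPM inside the gate and 15.8 CPM outside it. Bok had 1.03 at E15 and -1.61 at P7 (2.70 and 8.31 CPM), and Chaf1b 1.01 and -0.56 (1.82 and 2.70 CPM). Tshz2 had 1.16 at E15 and -0.28 at P7 (190 and 231 CPM), and Apoe 1.11 and -0.12 (3533 and 3849 CPM). Ppp1r1a had -3.07 at E15 and 1.05 at P7 (36.4 and 17.6 CPM).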

How the results depend on the processing

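Of the 111 higher and 415 lower calls against the other mesenchyme, DESeq2 made 49 and 133 (48 and 133 of them shared), a fold limit of 1.5 gave 354 and 695, and thinning cells before the gate left 22 and 96 (13 and 58 shared). Thinning after the gate gave 228 lower calls, and leaving out cycling cells 225. Against Otor-only cells (98 and 297) the counts were 23 and 82 with DESeq2, 271 and 510 at 1.5-fold, 18 and 70 thinned before the gate and 36 and 117 after it, with 146 lower without cycling cells. For age (2451 and 1691), DESeq2 gave 1539 higher, thinning before the gate 967 and 487, leaving out cycling cells 1476 and 801, thinning after the gate 1071 lower and the 1.5-fold limit 2547 lower. Without the library as a block, 104 and 365 genes were called against the other mesenchyme and 90 and 284 against Otor-only cells. With 1 replicate left out there was no test, and in the remaining library 89 to 90 higher and 362 to 380 lower called genes were past 2-fold against the other mesenchyme, 74 to 79 and 255 to 267 against Otor-only cells, and 2312 to 2349 and 1577 to 1611 for age. The share of Car3/Otor cells was 6.44% and 7.74% with the looser gate, 2.70% and 3.24% with the stricter gate of 5 Car3 and 10 Otor UMIs, and 1.35% and 2.22% thinned before the gate. The cycling share was 45.5% and 52.7% when 3 UMIs were asked for, and 74.6% in replicate 2 with the stricter gate. Without cycling cells Ccn3 turned to 0.38 and Tnc to 0.29. Against Otor-only cells the hemoglobin genes Hbb-bt, Hbb-bs, Hba-a1 and Hba-a2 turned to -4.97, -4.19, -5.32 and -4.69 without the highest doublet scores. Leaving out 1 replicate gave -0.97 to 2.40 for Hbb-bt, -1.95 to 2.82 for Hbb-bs, -2.56 to 2.65 for Hba-a1 and -2.95 to 2.47 for Hba-a2, the negative value each time without replicate 2. Without cells carrying red cell RNA, Hbb-bt, Hbb-bs and Hba-a1 were at -0.31, -0.094 and -0.030, and DESeq2 gave -0.20 for Hba-a2. Fewer genes or cells enter the thinned and cycling-free fits, and beyond that the cause of these changes was not tested. Genes under about 10 CPM rest on few UMIs, and 178 cells limit what can be detected.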
